A study of Homo sapiens with 25 samples.

Results

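The MET locus on chromosome 7 was followed across 20 ChIP-seq peak lists from HCC364, NCI-H441, NCI-H358 and NCI-H2087, established human cell lines of lung adenocarcinoma. A peak belonged to the locus when it overlapped the MET gene body (GRCh38, chr7:116672196-116798377, 126.2 kb) or the 100 kb on either side of it, a window of 326.2 kb at chr7:116572196-116898377. That rule took 505 of 1257083 peaks. The NKX2-1 peaks of the 4 lines, merged where they overlapped by at least 1 bp, formed 54 regions here out of 145799 across the genome. MET was chosen by its NKX2-1 peaks in these same 4 lists, so the counts of regions and of lines bound are descriptions without a test.

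The cells were untreated, grown in serum-containing medium and fixed with formaldehyde. Every line had libraries for NKX2-1, H3K27ac and H3K4me1. The antibodies used in NCI-H2087 also covered FOXA1, FOXA2, SOX2, c-Jun, EP300, RNA polymerase II (RNAPolII), H3K4me3 and CTCF. Each line and antibody is 1 library, so no value below has a replicate check, and a fold in 1 line is set beside that of another without being compared with it. Lists held 7406 to 121789 peaks, and every list stopped at a −log10 q just above 3. A place without a peak is one that did not pass that threshold in that library, which does not show that the protein was absent.

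MET encodes the receptor tyrosine kinase for hepatocyte growth factor (HGF). Binding of the ligand on the cell surface leads to phosphorylation of the receptor's intracellular part, which recruits adaptors such as GRB2 and GAB1 and drives growth, motility and survival. MET is active in epithelium during lung repair and is a known oncogene in lung adenocarcinoma. NKX2-1 is the homeodomain transcription factor that marks the lung epithelial lineage, and FOXA1 and FOXA2 are forkhead factors that work beside it at lung enhancers. H3K4me1 marks enhancers in general, H3K27ac marks active enhancers and promoters, and H3K4me3 marks promoters. EP300 is an acetyltransferase recruited to enhancers.

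On the upstream flank lie CAV1 (chr7:116525009-116561185) and CAV2, which encode caveolins, the coat proteins of small membrane pits. Both genes end outside the window: the CAV1 annotation stops 111.0 kb before the MET start. The 100 kb called the caveolin side here lies entirely inside COMETT (chr7:116563594-116688027), a long non-coding RNA gene that runs on into the MET gene body. On the other flank, CAPZA2 (chr7:116862587-116922049), a subunit of the actin capping protein, starts 64.2 kb after the MET end. No annotation of exons or introns was used, so positions inside MET are given as distance from its annotated start.

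The reference promoters of MET and CAPZA2 are shown because NKX2-1 peaks of all 4 lines lay over or beside them. Each run is the 250 bases before the annotated start in the RefSeq table for GRCh38.p14, both on the plus strand, at chr7:116671946-116672195 for MET and chr7:116862337-116862586 for CAPZA2. Capitals mark a match to the NKX2-1 motif CACTNNAG.
MET promoter: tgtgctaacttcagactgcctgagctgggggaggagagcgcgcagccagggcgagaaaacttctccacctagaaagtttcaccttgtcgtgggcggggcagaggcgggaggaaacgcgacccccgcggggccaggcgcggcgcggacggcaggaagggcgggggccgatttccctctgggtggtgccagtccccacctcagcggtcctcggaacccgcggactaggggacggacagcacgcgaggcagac
CAPZA2 promoter: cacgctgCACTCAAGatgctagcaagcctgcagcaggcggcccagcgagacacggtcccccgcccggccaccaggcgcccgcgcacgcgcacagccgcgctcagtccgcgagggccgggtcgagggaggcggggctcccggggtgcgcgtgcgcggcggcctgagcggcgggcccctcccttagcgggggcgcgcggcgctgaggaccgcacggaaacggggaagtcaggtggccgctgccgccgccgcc
The MET promoter was 68.4% G and C and held no match on either strand to CACTNNAG, to the FOXA motif TGTTTNC, to the AP-1 motif TGANTCA or to the SOX2 motif CATTGT. Of 34961 reference promoters cut the same way, 10.6%, 15.5%, 6.54% and 9.25% held those motifs, in that order. CAPZA2 held 1 match, CACTCAAG, which begins 243 bases before its start, and the NKX2-1 summits of the 4 lines lay 38 to 92 bp from it. These matches describe the printed letters only. The sequences under the other peaks were not analysed here.

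**Figure D1:**
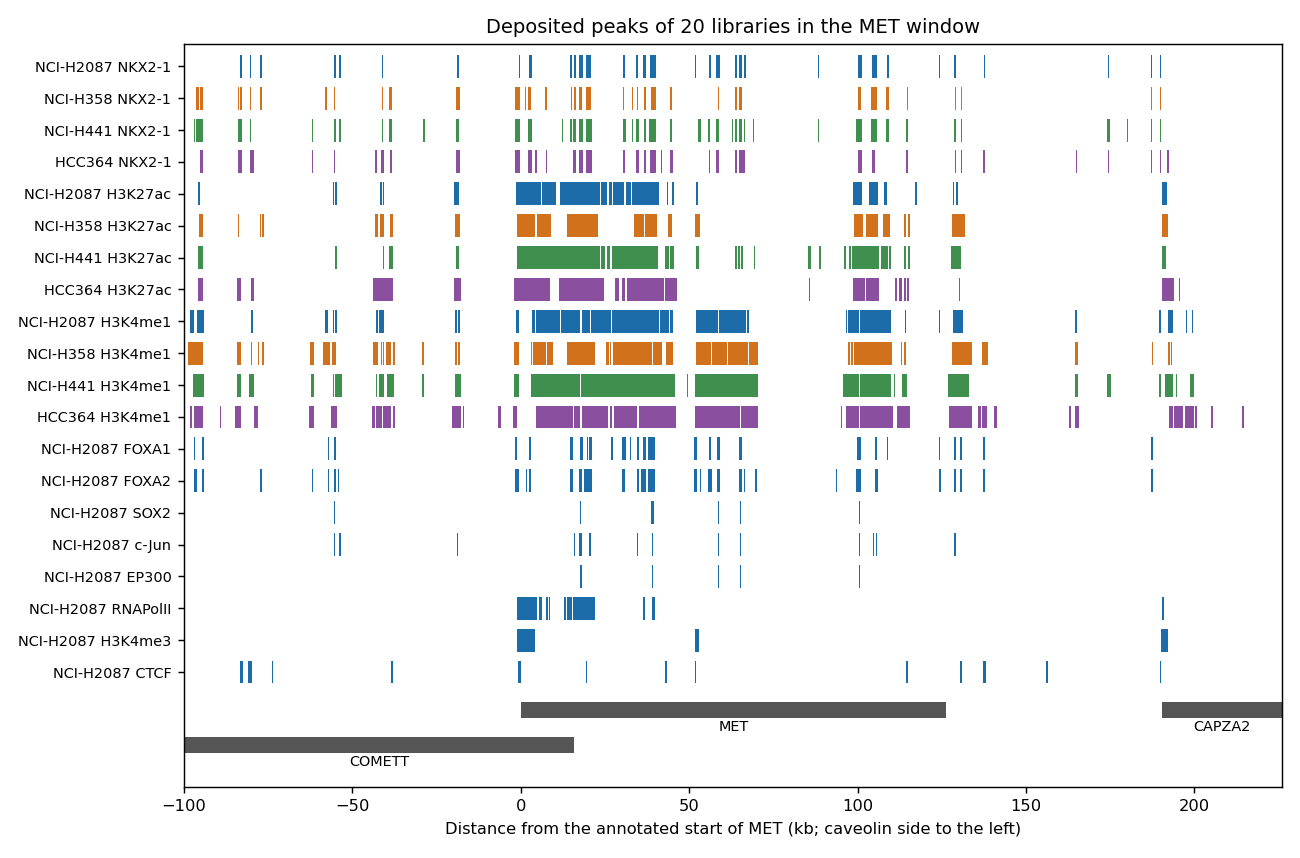
Peaks of the 20 lists across the MET window (x axis: distance from the annotated start of MET in kb; each row is 1 library, each block 1 deposited peak drawn to scale, coloured by cell line; grey bars are annotated genes). NKX2-1 peaks recur at the same places in the 4 lines, and the acetylated blocks are widest over the first part of MET.

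NKX2-1 regions lay in the MET gene body and on both flanks, but none lay between chr7:116864657 and the window end at chr7:116898377. The caveolin side held 15, the MET gene body 30 and the CAPZA2 side 9. HCC364 had a peak in 37 of the regions (58.6% of all regions over the genome), NCI-H441 in 43 (61.3%), NCI-H358 in 34 (50.9%) and NCI-H2087 in 32 (50.8%). All 4 lines were bound at 22 regions, 40.7% of the 54, against 22.3% of all NKX2-1 regions. A further 10 regions were bound in 3 lines (genome 17.1%), 6 in 2 lines (20.4%) and 16 in 1 line (40.2%). Of those 16, 7 were in NCI-H441 (genome 26.0% of single-line regions), 5 in HCC364 (34.8%), 2 in NCI-H358 (22.6%) and 2 in NCI-H2087 (16.5%). The regions of the locus were more often shared by all 4 lines than NKX2-1 regions at large, and since MET was picked with such counts known, nothing is read from this.

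By length, the window held 16.6 NKX2-1 regions per 100 kb, and 6.74 of them per 100 kb were bound in all 4 lines. The medians over 19970 protein-coding genes, each with 100 kb on either side, were 7.1 and 1.71. MET ranked 275 by the first measure and 241 by the second.

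Shared regions were also the taller ones. In NCI-H2087 the 22 regions bound in all lines had a median fold over local background of 11.1 (3.38 to 80.9), where the other 10 regions of that line had 6.08 (4.99 to 11.5). In HCC364 the medians were 18.6 and 7.23, in NCI-H441 14.9 and 7.24, and in NCI-H358 10.2 and 7.28. The 16 regions bound in 1 line had folds between 3.09 and 9.74. A weak peak is more easily lost at the threshold in another library, so how many lines a region is called in is not independent of its fold.

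The outer limits were set by distance alone, though that at the CAPZA2 end, chr7:116898377, fell in a stretch without NKX2-1 regions. At the caveolin end the first region inside, chr7:116575103-116575460, was bound in NCI-H441 only with a fold of 7.70. The next one outside, chr7:116570995-116572111, was bound in all lines with folds of 11.4, 10.5, 13.9 and 12.6 in HCC364, NCI-H441, NCI-H358 and NCI-H2087. At the CAPZA2 end the last region inside, chr7:116864084-116864657, was bound in HCC364 only with a fold of 6.14. The next outside, chr7:116930278-116931411, was bound in 3 lines with folds of 5.31 to 15.0.

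**Figure D2:**
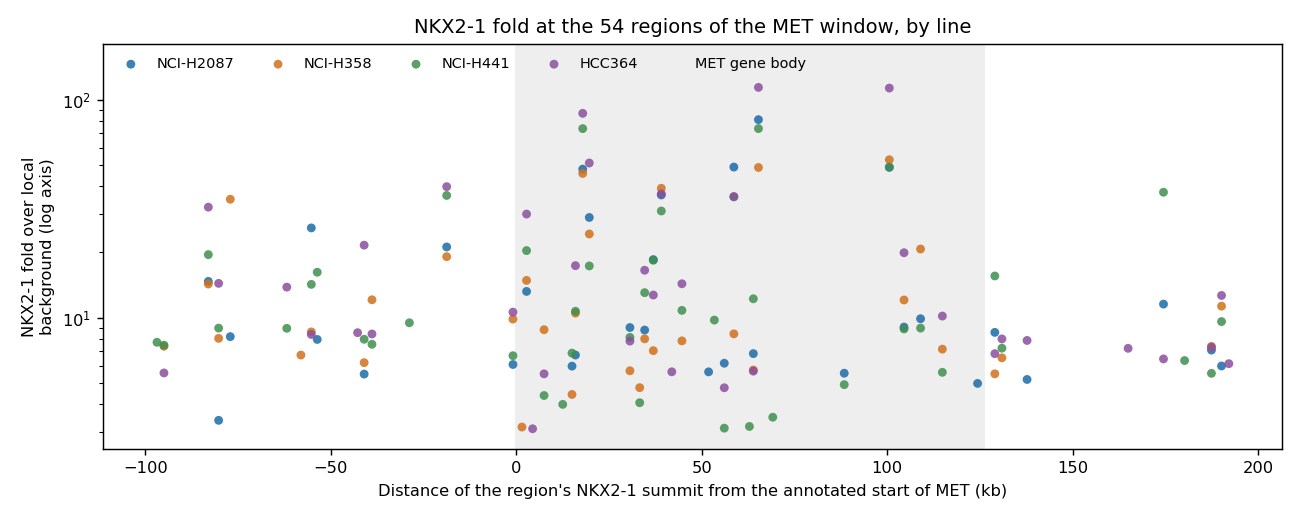
NKX2-1 fold over local background (y axis, log scale, no unit) at the 54 regions by distance of the summit from the annotated MET start (x axis, kb); each point is 1 line's strongest peak in a region and the shaded band is the MET gene body. In HCC364, NCI-H441 and NCI-H358 the tallest regions stand inside the gene, at 17.9, 65.3 and 100.5 kb from its start. In NCI-H2087 that at 65.3 kb is tallest, and that at 58.6 kb (fold 49.0) stands slightly above the others.

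The region 65.3 kb inside the gene (chr7:116736906-116738967) had the highest NKX2-1 fold of the window in 3 of the 4 lists, NCI-H358 being the exception. NKX2-1 fold was 113.8 in HCC364, 73.6 in NCI-H441, 48.8 in NCI-H358 and 80.9 in NCI-H2087. Within each list the peak ranked by −log10 p at percentile 99.98, 99.99, 98.9 and 99.7 in that order of lines. All 4 lines were bound near the top of their lists at this place. H3K4me1 had a peak on it in all lines, but H3K27ac had a peak on it in NCI-H441 only, and there at low folds: the 2 acetylation peaks that touched the region had folds of 4.14 and 2.90. In NCI-H2087 all 5 of FOXA1, FOXA2, SOX2, c-Jun and EP300 had a peak, with folds of 60.5, 88.3, 4.18, 5.94 and 5.77. Within their own lists the NKX2-1, FOXA1 and FOXA2 peaks of that line stood at percentiles 99.7, 97.5 and 98.8. Those of SOX2, c-Jun and EP300 stood at 4.51, 11.6 and 42.6, and NCI-H2087 had no H3K27ac peak there.

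A second region with all these factors but little acetylation lay 58.6 kb inside the gene (chr7:116730077-116731365). NKX2-1 fold was 35.9 in HCC364, 35.8 in NCI-H441, 8.42 in NCI-H358 and 49.0 in NCI-H2087. The peak stood at percentile 50.1 of the NCI-H358 list and at 97.4 to 98.9 of the other lists, so it was a middling peak in that line and a strong one elsewhere. H3K27ac was called in none of the 4 lines and H3K4me1 in all 4, a combination seen at 4.91% of the genome's regions bound in 4 lines and at 1 of the 22 here. Its NCI-H2087 summits of FOXA1, FOXA2, SOX2, c-Jun and EP300 lay 3 to 22 bp from that of NKX2-1. FOXA1 and FOXA2 folds were 39.9 and 59.1, c-Jun, SOX2 and EP300 folds 5.48, 5.56 and 8.40. A short pseudogene annotation, LOC124901824, falls inside it.

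The other regions with all 5 factors carried H3K27ac in every line. At 17.9 kb (chr7:116689426-116690592) NKX2-1 fold was 86.5, 73.6, 45.8 and 48.0 in HCC364, NCI-H441, NCI-H358 and NCI-H2087. c-Jun, the AP-1 subunit, had its highest fold of the window there, 23.1, and its summit lay 15 bp from that of NKX2-1, while the EP300 summit (fold 8.19) lay 1 bp away. At 39.1 kb (chr7:116710384-116712328) NKX2-1 fold was 37.0, 30.8, 39.2 and 36.5 in the same order. The forkhead factors were highest there, with a FOXA1 fold of 104.5 and a FOXA2 fold of 146.2, at percentiles 99.3 and 99.6 of their lists, and SOX2 reached its highest fold of the window, 11.7. At 100.5 kb (chr7:116771788-116773558) NKX2-1 fold was 113.0, 49.0, 53.0 and 48.9, the FOXA1 and FOXA2 folds were 33.3 and 45.3, and EP300 had its highest fold of the window, 8.92. c-Jun and EP300 were close to these highest values at both 17.9 and 100.5 kb, with a c-Jun fold of 20.1 at the latter.

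On the caveolin side, 1 region held 4 of the 5 factors, 55.3 kb upstream (chr7:116616606-116617253). NKX2-1 fold was 8.37 in HCC364, 14.2 in NCI-H441, 8.59 in NCI-H358 and 25.8 in NCI-H2087. FOXA1, FOXA2, SOX2 and c-Jun had folds of 17.7, 22.7, 11.0 and 7.89 with summits 1 to 75 bp from that of NKX2-1, and EP300 had no peak. H3K27ac was present in NCI-H2087 and NCI-H441 only, and H3K4me1 in all lines. In its acetylation this site differed between lines although NKX2-1 was called in all 4.

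The tallest caveolin-side region in NCI-H441 and HCC364 was 18.8 kb upstream (chr7:116652993-116654033). NKX2-1 fold was 39.9, 36.3, 19.0 and 21.1 in HCC364, NCI-H441, NCI-H358 and NCI-H2087. H3K27ac and H3K4me1 peaks overlapped it in every line, with H3K27ac folds of 14.2, 7.85, 12.4 and 10.7. Of the 5 factors it held c-Jun only. FOXA1 and FOXA2 peaks were both missing there, which set it apart from the intragenic regions just described.

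Another caveolin-side cluster was wide in HCC364. A single H3K27ac peak of 6.07 kb (chr7:116628218-116634282) with a fold of 28.8 spanned the regions 42.8, 41.0 and 38.9 kb upstream in that line. The other lines had separate small acetylation peaks over the same stretch, 0.429 to 1.21 kb wide with folds of 5.25 to 10.6. NKX2-1 fold at the middle region, the only one of the 3 bound in all lines, was 21.5 in HCC364, 7.95 in NCI-H441, 6.21 in NCI-H358 and 5.51 in NCI-H2087. The acetylated block was continuous in HCC364 and broken into short peaks elsewhere. None of the 5 factors had an NCI-H2087 peak in these 3 regions.

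Nearer the CAV1 end, regions 83.0 and 80.3 kb upstream were bound in all lines and coincided with CTCF, the insulator protein. NKX2-1 fold at the first (chr7:116588191-116589472) was 32.1, 19.4, 14.2 and 14.7 in HCC364, NCI-H441, NCI-H358 and NCI-H2087. At the second (chr7:116591696-116592832) it was 14.4, 8.95, 8.03 and 3.38. The CTCF folds were 59.6 and 34.9, the first being the highest CTCF fold of the window. Neither held any of the 5 factors, and H3K27ac was called at them in NCI-H358 and HCC364 for the first and HCC364 for the second.

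The remaining caveolin-side regions were bound in fewer lines. At 77.1 kb upstream (chr7:116594636-116595457) NKX2-1 fold was 34.9 in NCI-H358 and 8.17 in NCI-H2087, with no peak in NCI-H441 or HCC364. H3K27ac and H3K4me1 were called there in NCI-H358 only, and FOXA2 had a peak in NCI-H2087. The regions 95.0 and 38.9 kb upstream were bound in all lines but NCI-H2087, and the first carried H3K27ac in all 4 lines with FOXA1 and FOXA2 in NCI-H2087. That at 61.9 kb was bound in NCI-H441 and HCC364, and that at 53.7 kb in NCI-H2087 and NCI-H441, the latter with c-Jun and FOXA2. Single-line regions lay 96.9 and 28.8 kb upstream in NCI-H441, 58.1 kb in NCI-H358 and 42.8 kb in HCC364.

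NKX2-1 peaks at the MET promoter were well below the tallest regions of the gene body. The region chr7:116670364-116672084 had folds of 10.6, 6.68, 9.84 and 6.09 in HCC364, NCI-H441, NCI-H358 and NCI-H2087, and its summits lay 914, 1629, 1676 and 281 bp before the annotated start. These peaks stood at percentiles 68.7, 45.2, 68.0 and 21.4 of their lists. The NCI-H2087 summit was the nearest to the start, and none lay inside the printed 250 bases. H3K27ac and H3K4me1 were present in all lines, and NCI-H2087 had FOXA1, FOXA2, RNAPolII, H3K4me3 and CTCF. A stronger region stood 2.75 kb inside the gene (chr7:116674447-116675526), with NKX2-1 folds of 29.9, 20.3, 14.8 and 13.2, FOXA1 and FOXA2, and H3K27ac in every line. The polymerase peak over the start was 5.95 kb wide with a fold of 26.2, and the H3K4me3 peak (chr7:116671186-116676483) was 5.30 kb wide with a fold of 149.9.

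H3K4me3 had 2 further peaks in the window of NCI-H2087. The one at chr7:116862229-116864425 sits at the CAPZA2 start. The other, chr7:116723861-116725164, was 1.30 kb wide with a fold of 32.1 and lay 52.1 kb inside MET, away from the annotated ends of the genes named here. NKX2-1 had a peak of fold 5.64 over it in NCI-H2087 and one of fold 9.74 in NCI-H441, at regions 51.8 and 53.4 kb from the start that were bound in no other line. FOXA1, FOXA2 and a weak CTCF peak (fold 5.19) lay at the first of them. RNAPolII had no peak there. Of the 10 RNAPolII peaks, 7 had summits 0.366 to 18.1 kb inside MET, 2 at 36.7 and 39.0 kb and 1 at CAPZA2.

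Several regions of the gene body were bound in all lines with fewer partners. The region 19.7 kb inside (chr7:116691461-116693210) had NKX2-1 folds of 51.2, 17.3, 24.2 and 28.8 in HCC364, NCI-H441, NCI-H358 and NCI-H2087, and FOXA1, FOXA2 and c-Jun in NCI-H2087. That at 36.9 kb (chr7:116708353-116709469) had 12.7, 18.3, 7.05 and 18.5, with FOXA1 and FOXA2. That at 104.5 kb (chr7:116776319-116777949) had 19.8, 8.87, 12.0 and 9.04, with FOXA1, FOXA2 and c-Jun. All 3 carried H3K27ac and H3K4me1 in every line. Lower regions bound in all lines stood at 15.9, 30.6, 34.6 and 63.9 kb, each with H3K4me1 in every line. That at 15.9 kb (chr7:116687759-116688690) had folds of 17.3, 10.7, 10.5 and 6.73 in the order of lines just given, with c-Jun and with H3K27ac in every line. That at 30.6 kb (chr7:116702411-116703331) had 7.80, 8.12, 5.70 and 9.0004, with FOXA1 and FOXA2 and with H3K27ac in all lines but NCI-H358. Those forkhead factors and c-Jun lay on the region at 34.6 kb (chr7:116706465-116707226), which had 16.5, 13.01, 7.99 and 8.76 and H3K27ac in every line. The region at 63.9 kb (chr7:116735685-116736478) had 5.68, 12.2, 5.74 and 6.83. It held none of the 5 factors, and its H3K27ac was called in NCI-H441 only.

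Lines were missing at the other gene-body regions. Those at 7.47, 44.6 and 114.8 kb lacked a peak in NCI-H2087 only, those at 15.0 and 109.0 kb in HCC364 only and that at 56.1 kb in NCI-H358 only. Over the whole window NCI-H2087 was the only line missing at 6 of the 10 regions bound in 3 lines (genome 22.9%), HCC364 at 2 (32.7%), NCI-H358 at 2 (34.4%) and NCI-H441 at 0 (10.0%). The region at 109.0 kb had folds of 8.95 in NCI-H441, 20.6 in NCI-H358 and 9.88 in NCI-H2087. Regions at 33.3 and 88.4 kb were bound in 2 lines. Single-line regions lay at 12.5, 53.4, 62.8 and 69.1 kb in NCI-H441, 4.39 and 41.9 kb in HCC364, 51.8 and 124.3 kb in NCI-H2087 and 1.52 kb in NCI-H358.

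Past the MET end, towards CAPZA2, binding was sparser. The region 129.0 kb from the MET start (chr7:116800692-116801518) had NKX2-1 folds of 6.83, 15.5, 5.52 and 8.55 in HCC364, NCI-H441, NCI-H358 and NCI-H2087, with FOXA1, FOXA2 and c-Jun and with H3K27ac in all lines but HCC364. At 187.4 kb (chr7:116859361-116859776) the folds were 7.30, 5.55, 7.38 and 7.09, with FOXA1 and FOXA2 but no H3K27ac in any line. The region over the CAPZA2 promoter (chr7:116861987-116862417) had 12.6, 9.59, 11.3 and 5.997, the peaks that lay beside the printed motif match. In NCI-H2087 it also held H3K4me3 and CTCF. The tallest on this side was in NCI-H441, a fold of 37.6 at 174.5 kb (chr7:116846333-116847051), where NCI-H2087 had 11.5, HCC364 6.46 and NCI-H358 no peak. H3K27ac was called there in no line. The other 5 regions of this side were at 130.9 kb (3 lines), 137.7 kb (2 lines), and 164.9, 180.1 and 192.1 kb (1 line each, HCC364 at the outer pair and NCI-H441 between).

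**Figure D3:**
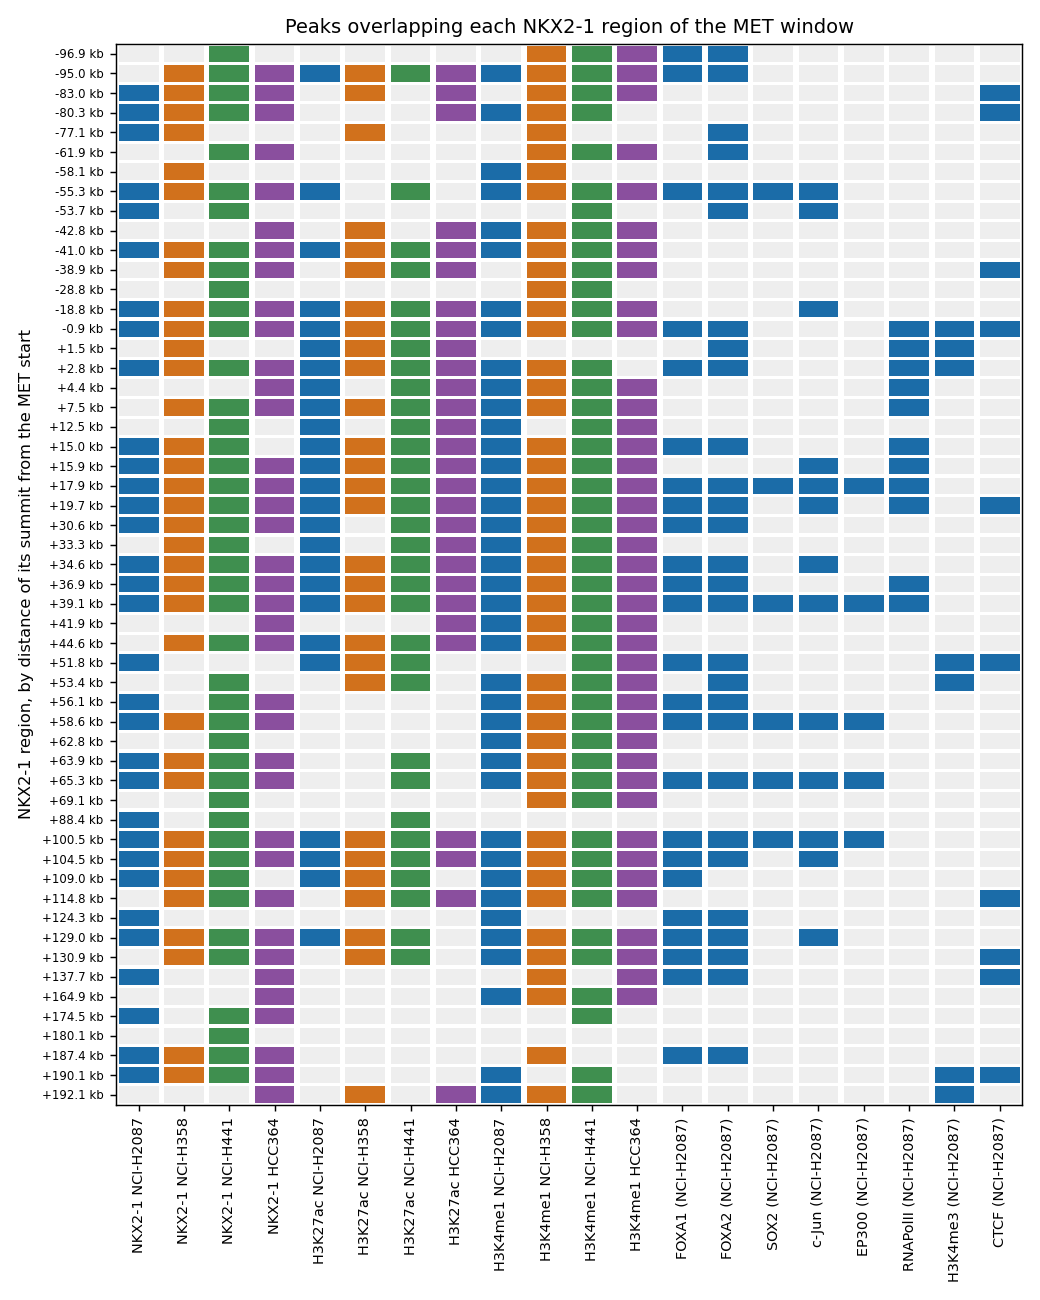
Peaks overlapping each of the 54 NKX2-1 regions (rows, in order along the chromosome, labelled by distance of the summit from the MET start in kb, minus for upstream); columns are the 4 NKX2-1, 4 H3K27ac and 4 H3K4me1 libraries and the 8 other NCI-H2087 libraries, and a coloured cell is an overlap of at least 1 bp. The 5 rows with every one of FOXA1, FOXA2, SOX2, c-Jun and EP300 are all inside MET and bound in 4 lines.

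Acetylation followed the gene body more than the flanks. H3K27ac peaks covered 49.1 kb of the MET gene body in HCC364, 59.2 kb in NCI-H441, 36.0 kb in NCI-H358 and 46.2 kb in NCI-H2087, which is 38.9%, 46.9%, 28.5% and 36.6% of it. On the 100 kb of the caveolin side they covered 13.1, 5.45, 8.37 and 5.87 kb in the same order. The widest block was a peak of 24.6 kb in NCI-H441 that began just before the MET start (chr7:116671116-116695737, fold 43.5). H3K4me1 covered 59.6%, 61.6%, 50.2% and 54.03% of the gene body.

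Region by region, H3K27ac lay on 18 of 32 bound regions in NCI-H2087 (56.3%, genome 53.2%) and 24 of 34 in NCI-H358 (70.6%, genome 51.7%). In NCI-H441 it lay on 29 of 43 (67.4%, genome 46.5%) and in HCC364 on 24 of 37 (64.9%, genome 51.7%). The NCI-H2087 share was near that of the genome and the other shares were above theirs. H3K4me1 lay on 31, 40, 32 and 24 bound regions in HCC364, NCI-H441, NCI-H358 and NCI-H2087, or 83.8%, 93.0%, 94.1% and 75.0%, where the genome gave 65.1%, 72.1%, 71.6% and 64.9%.

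Over the 54 regions, H3K27ac was called in all 4 lines at 17 (31.5%, genome 17.5%) and in no line at 16 (29.6%, genome 47.1%). Of the 17, 13 lay in the gene body and 4 on the caveolin side. Among the 22 regions bound in all lines, 12 carried H3K27ac in 4 lines, or 54.5% against 50.6% of such regions genome-wide, a share near the background. H3K4me1 was in 4 lines at 17 of the 22 (77.3%, genome 59.4%). The 3 regions bound in 4 lines without H3K27ac in any line (13.6%, genome 17.0%) were those at 58.6, 187.4 and 190.1 kb. The last of these is over the CAPZA2 promoter, and CAPZA2 had an acetylated gene end in all 4 lines. In NCI-H2087 an H3K27ac peak of fold 14.1 (chr7:116862538-116864055) began just past that region without overlapping it.

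Whether the marks went with NKX2-1 from line to line was asked at the 32 regions bound in 1 to 3 lines. These give 58 pairs of a region and a line with an NKX2-1 peak and 70 without. H3K27ac was present at 58.6% of the bound and 25.7% of the unbound pairs, a difference of 32.9 percentage points. By line the difference was 36.5 points in HCC364, 29.9 in NCI-H441, 63.3 in NCI-H358 and -1.82 in NCI-H2087, higher at bound regions in 3 of 4 lines. In an exact one-sided permutation test of the 24 assignments of line labels to the histone libraries, p was 0.0417, the smallest that 4 lines can give, and 0.0833 after Benjamini-Hochberg adjustment over the 2 marks. The same difference over the genome was 27.4 points (39.0% and 11.6%).

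H3K4me1 showed 81.0% at bound and 61.4% at unbound pairs, a difference of 19.6 points, with an exact one-sided permutation p of 0.0833 (0.0833 adjusted). By line it was 33.7 points in HCC364, 35.9 in NCI-H441, 26.7 in NCI-H358 and -28.2 in NCI-H2087. The genome gave 39.8 points (63.4% and 23.6%). Neither mark passed the 0.05 threshold after adjustment. At these 32 regions, which leave out those bound in all lines, neither mark was more frequent in NCI-H2087 where NKX2-1 had a peak. With 4 lines the adjusted value can pass only when both marks reach the smallest p.

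In NCI-H2087, FOXA1 lay on 21 of the 32 bound regions (65.6%, genome 54.9%) and FOXA2 on 22 (68.8%, genome 59.7%). c-Jun lay on 13 (40.6%, genome 28.0%), SOX2 on 6 (18.8%, genome 11.9%) and EP300 on 5 (15.6%, genome 9.43%). RNAPolII was at 8 (25%, genome 24.7%), H3K4me3 at 4 (12.5%, genome 20.3%) and CTCF at 7 (21.9%, genome 21.5%). RNAPolII and CTCF were near their genome-wide shares. None of FOXA1, FOXA2, SOX2, c-Jun and EP300 lay on 7 (21.9%, genome 31.1%). With 32 regions, a difference of a few regions sets these shares apart.

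Regions with all 5 of FOXA1, FOXA2, SOX2, c-Jun and EP300 numbered 5 of 32 (15.6%, genome 3.31%). All 5 lay inside MET and were bound in every line, as were 80.1% of such regions over the genome. H3K27ac of NCI-H2087 lay on 3 of the 5, whereas it lay on 88.9% of such regions over the genome. The exceptions were the regions at 58.6 and 65.3 kb. Some of these factor calls were weak, below the stricter −log10 q of 10. It was 8.57 for EP300 at 39.1 kb and 8.29 for c-Jun at 58.6 kb. At 65.3 kb it was 6.52, 8.38 and 8.40 for SOX2, c-Jun and EP300. The count of 5 and the contrast in H3K27ac rest in part on those calls. Read from the side of the factors, each of the 6 SOX2, 5 EP300 and 14 c-Jun peaks of the window overlapped an NCI-H2087 NKX2-1 peak, as did 96.5%, 96.3% and 91.3% of these lists over the genome, so the counts were near the background. FOXA1 did so at 21 of 28 peaks (genome 60.9%), FOXA2 at 23 of 33 (54.4%) and CTCF at 7 of 13 (25.3%).

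Of the 22 NKX2-1 regions of the window that were not bound in NCI-H2087, 6 held a peak of at least 1 of FOXA1, FOXA2, SOX2, c-Jun and EP300 in that line (genome 14.5%). All 6 held FOXA2 (11.9%), and those at 96.9 and 95.0 kb upstream and at 130.9 kb also held FOXA1 (9.37%). SOX2 (0.0753%), c-Jun (1.97%) and EP300 (0.17%) had no peak at any of the 22, which at such shares is near the background.

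The local background differed between lines. It is the number of fragments expected at a summit from its surroundings, solved from the fold and p of each peak, and is given as the median over the window divided by the median over the whole list. Over the NKX2-1, H3K27ac and H3K4me1 libraries the ratio was 1.94, 1.94 and 2.07 in NCI-H441 and 1.55, 1.37 and 1.44 in HCC364. For the same antibodies it was 0.975, 0.944 and 1.02 in NCI-H2087 and 0.929, 1.07 and 0.920 in NCI-H358. The means, with the SD over the 3 libraries of each line, were 1.98 ± 0.078 in NCI-H441 and 1.45 ± 0.087 in HCC364, and 0.981 ± 0.041 in NCI-H2087 and 0.973 ± 0.084 in NCI-H358. Libraries of 1 line share their cells, so the SD is between antibodies and no test was made. Their peaks may also have been called over the same input library, which was not tested. In the HCC364 NKX2-1 list, summits of 23 and of 883 fragments had the same solved background, 6.77. The 3 ratios of a line are therefore not taken as independent measurements. NCI-H441 and HCC364 stood above the other lines, and the ranges of the 4 lines overlapped only between NCI-H2087 and NCI-H358. The 11 NCI-H2087 libraries ranged from 0.944 to 1.27.

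The raised background was not confined to the 1 Mb around MET. In 1 Mb bins along chromosome 7, averaged over the same 3 libraries, the MET bin had 1.86 in NCI-H441, rank 6 of 117 bins, and 1.46 in HCC364, rank 3 of 122. It had 0.962 in NCI-H2087 (rank 68 of 118) and 1.01 in NCI-H358 (rank 13 of 118). In NCI-H441 the 62 bins from 38 Mb before MET to the chromosome end had a median of 1.61 (1.16 to 2.01), and the 55 bins before that point had 0.834 (0.734 to 1.01). The point was chosen after the values were seen. In HCC364 the same stretches had 1.30 (0.900 to 1.53) and 1.12 (0.828 to 1.32), which overlap. NCI-H441 had the most NKX2-1 regions in the window, 43, as it had over the genome. The part of the background in that count was not tested.

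**Figure D4:**
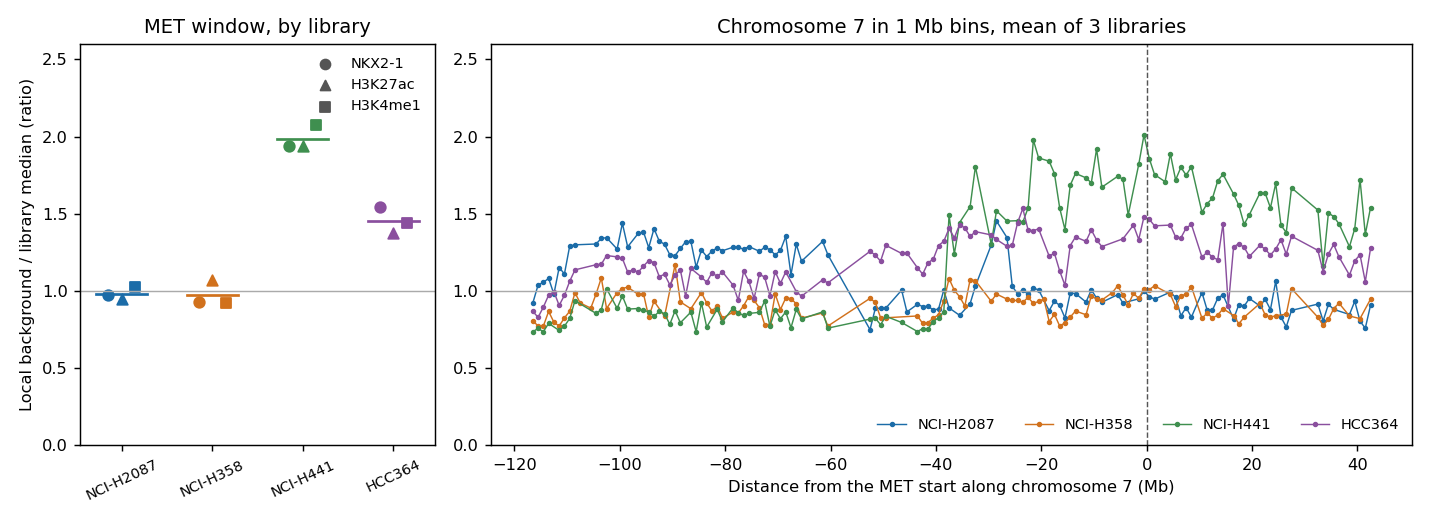
Local background as a ratio to the library median (y axes, no unit): left, each library in the MET window, with a bar at the mean of 3; right, 1 Mb bins along chromosome 7 by distance from the MET start (Mb, dashed line at MET), mean of 3 libraries. NCI-H441 is at 1.94 to 2.07 in the window and above 1.16 over the whole stretch from 38 Mb before MET to the chromosome end.

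The background bears on how the folds of a region read. At the 65.3 kb region the summit held 883, 794, 203 and 387 fragments over a background of 6.77, 9.80, 3.18 and 3.79 in HCC364, NCI-H441, NCI-H358 and NCI-H2087. The fold divides these numbers, each plus 1, so at a given number of fragments a higher background gives a lower fold. The fragment numbers are not scaled to depth and are not compared between lines.

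Genes of the HGF and MET pathway were read the same way, by H3K27ac within 1 kb of an annotated gene end and by NKX2-1 regions per 100 kb. MET had an acetylated end in all 4 lines. Of the 24 other genes, 18 did (75.0%, all protein-coding genes 49.4%), 3 did in 1 to 3 lines and 3 in no line. HGF, the ligand, and HGFAC, the protease that activates it, had none in any line. ST14 and HPN, surface proteases that also cleave HGF, had 3 lines and 2, and SPINT1 and SPINT2, their inhibitors, had 4. All 12 adaptors and enzymes, from GAB1 and GRB2 to PIK3CA and STAT3, had 4. Among the limiters CBL and ERRFI1 had 4, MUC20 3 and LRIG1 0. MST1R, the receptor most like MET, and its ligand MST1 had 4.

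For NKX2-1 regions bound in all lines, the median of the 24 genes was 2.32 per 100 kb, against 1.71 for all genes and 6.74 for MET. ERRFI1, a feedback inhibitor of receptor kinases, had 8.85 and SPINT1 had 7.004. They were the only 2 of the 24 above MET. MST1R had 2.31, HGF 0.738 and GRB2 3.13.

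The genes with peak numbers most like those of MET over the 20 libraries were ICE2, CALM2, COL6A3, MTHFD2L and ANXA1. Likeness was the Euclidean distance of log2 peak numbers relative to each library's density, 1.27 to 1.41 for these 5 and 7.35 at the median of all genes. ICE2 had 34 NKX2-1 regions, 18 of them in 4 lines, and ANXA1 had 36, 9 of them in 4 lines. COL6A3 had no acetylated gene end in any line, whereas MET and the other 4 had one in all lines.

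The lines were checked against their label. NKX2-1, NAPSA and KRT7, markers of lung adenocarcinoma, and EPCAM, CDH1, KRT8 and KRT18, markers of epithelium, had an acetylated gene end in all 4 lines, and SFTPB had one in all but NCI-H358. Of 6 markers of other cells, PTPRC, PECAM1 and ALB had none, CDX2 had one in NCI-H441, CD3E in 3 lines and COL1A1 in 4. An acetylated end near a gene can belong to its neighbour, and the gene table does not give strand.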

How the data were processed

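Sonicated chromatin was sequenced as paired 40 bp reads, per the labels' protocols. The submitters' processing notes name build hg38 (GRCh38) and the tools MACS2 (2.2.7.1 and 2.1.1), SAMtools 1.9, Bowtie2 2.2.9, Trimmomatic 0.36 and bedtools. The role of each and which MACS2 version made which list are not given in the sources used here. The authors deposited 1 narrowPeak list per library, with the fold (a linear ratio) and the −log10 p and −log10 q of each peak. The deposited score column was not used. Fold, p and q are the authors' and rank or describe peaks within a list only. The 5 input libraries were not analysed here, and 0.0610% to 0.502% of each list, on other chromosomes or contigs, was left out. Total reads per library were not used, so depth is shown only by peak numbers and local background.

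NKX2-1 peaks of the 4 lines were merged, and an overlap of 1 bp counted. Pileup and background were solved from fold and p, which recovered whole pileups for at least 99.96% of each list within 0.01 in −log10 p. The solver and the permutation test were tested on simulated data. A region's fold is that of its strongest peak in a line. Bins of 1 Mb needed 5 peaks. Profiles of genes used a pseudocount of 0.5. Regions named in full were those bound in 4 lines or holding 4 of 5 factors, and those 77.1 kb upstream and 174.5 kb past the MET start, chosen after their values were seen. Genes named were the neighbours, a list of the HGF and MET pathway and the 5 nearest profiles. Members and lists were chosen with earlier results of these data known. Python 3.11.15, numpy 2.4.6, pandas 2.3.3 and scipy 1.17.1 were used.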

Additional observations from a re-analysis of the deposited data

How the results depend on the processing

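No paired analysis was possible because each line and antibody is 1 library. With only the 20000 strongest peaks of each list, NKX2-1 regions numbered 23 and those bound in all 4 lines 6; a stricter −log10 q of 10, summit windows of 500 bp or flanks of 50 kb gave 41 to 61 and 17 to 21. Without 1 line (added after the data were seen), regions numbered 47 to 52 and those bound in all remaining lines 22 to 28. With a −log10 q of at least 10, both mark differences passed after adjustment: H3K27ac 32.1 and H3K4me1 21.3 points, exact permutation p of 0.0417 adjusted. Under the other settings neither did, and all differences stayed above 0: without 1 line H3K27ac gave 25.04 to 35.0 points and H3K4me1 12.5 to 25.7, where 3 lines allow no p below 0.167.

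Keeping the 5000 strongest peaks of each list left 6 NCI-H2087 regions, with FOXA1 at 3, FOXA2 at 4, SOX2 at 1, c-Jun at 2, EP300 at 5 and RNAPolII, H3K4me3 and CTCF at 0. With a −log10 q of 10 EP300 lay at 3, lost at 39.1 and 65.3 kb, so at most 3 regions could then hold all 5 factors. Requiring summits within 200 bp left RNAPolII at 4 and H3K4me3 at 0, and the other factors within 1.5 times. For local background, 1 antibody alone per line lay farther from the mean of 3 than their SD. These were H3K4me1 in NCI-H2087 (1.02) and NCI-H441 (2.07), H3K27ac in NCI-H358 (1.07) and NKX2-1 in HCC364 (1.55). Of 3 values at least 1 always lies an SD or more from their mean, so nothing is read from this. In NCI-H441 local background also moved by more than that SD, to 1.84 with means and 1.905 within 1 Mb. The cause of these NCI-H441 moves was not tested. A list's depth limits which weak peaks are called.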

Other observations

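CTCF peaks of NCI-H2087 were spread along the window, 13 in all. The highest folds were 59.6 at 83.0 kb upstream of MET, 43.3 at 137.7 kb and 36.2 at 130.8 kb from its start, and 38.2 just before the start. The lowest was 5.19 at 51.8 kb. All of these but that at 130.8 kb lay on NKX2-1 regions bound in NCI-H2087.

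The protein-coding neighbours TES, CAV2, CAV1, CAPZA2 and ST7 each had an acetylated gene end in all 4 lines. Counted with 100 kb on either side, CAV1 had 33 NKX2-1 regions, 12 of them bound in 4 lines, CAV2 26 and 9, and CAPZA2 27 and 7. The windows of all these genes but TES overlap that of MET, so they share regions with it.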
